A study of Homo sapiens with 11 samples.

Results

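Cell cycle, replication and mitosis genes were examined in liver tumours grown from human pancreatic cancer cells with or without knockdown of NPTX1, the gene of the secreted neuronal pentraxin 1. The genes were 54 symbols taken from a list, each matched by name to 1 row of the 23434 rows of the authors' deposited table. The matching rule used no measured value, but earlier results of these data were known when the genes and role lists were chosen. By role they comprised 16 cyclins, cyclin-dependent kinases (CDKs) and their regulators, 4 transcription factors, 11 DNA replication genes, 21 mitosis genes and 2 chromosome genes used as proliferation markers (MKI67 and TOP2A). The tumours came from PANC1 LM3, which the labels describe as the 3rd liver-metastatic generation of the established human pancreatic ductal carcinoma line PANC1. Control cells carried the hairpin shCTRL and were of wild-type genotype, and knockdown cells carried shNPTX1_3 or shNPTX1_4, each a short hairpin RNA against NPTX1. In each group 500000 cells were put into the spleen on day 1, and the tumours formed in the liver were collected on day 21 for RNA sequencing. The library numbers were 4 (shCTRL), 3 (shNPTX1_3) and 4 (shNPTX1_4), and the titles call each library a biological replicate. The host animal, and whether each library came from its own animal or cell clone, are not stated in the labels. The p-values thus reflect only how these libraries vary, and that spread may be technical in part.

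A dividing cell passes from G1 through DNA synthesis (S phase) and G2 into mitosis. D-type cyclins with CDK4 or CDK6, and then E-type cyclins with CDK2, inactivate the retinoblastoma protein RB1, which frees E2F transcription factors to switch on the replication genes. Later, the MuvB complex with MYBL2 (B-Myb) and FOXM1 switches on the mitotic genes, and cyclin B with CDK1 drives entry into mitosis. Ductal pancreatic carcinomas commonly lose CDKN2A, the inhibitor of CDK4 and CDK6.

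The values were the authors' mean normalized counts of each group, together with 1 comparison of the 7 knockdown libraries over the 4 control libraries, with its DESeq2 log2 fold change, standard error (SE) and adjusted p. No value of a single library was analysed here, so a group mean stands without an SD, and whether the libraries of different groups overlap cannot be seen. Depth, read from single-read steps at low group means, ranged between 13000000 and 41200000 reads on genes for shCTRL, 10800000 and 24000000 for shNPTX1_3, and 16600000 and 26100000 for shNPTX1_4. As a check of the labels, the mean of NPTX1 per the authors' deposited table was 103 normalized counts for shCTRL, 46.5 for shNPTX1_3 and 38.4 for shNPTX1_4 (log2 fold change -1.26, SE 0.24, DESeq2 adjusted p = 3.65e-06). The carcinoma label was checked on 6 epithelial markers, of which KRT7, KRT8, KRT18 and KRT19 rose and EPCAM and CDH1 did not pass. Their summed means per the authors' deposited table were 16162 normalized counts for shCTRL, 56791 for shNPTX1_3 and 29042 for shNPTX1_4. Hepatocyte markers were low, with sums of 125, 162 and 130.02 per the authors' deposited table, albumin (ALB) under 1 in each group and TTR listed at 0 for shNPTX1_3. Of the 7 hepatocyte markers 1, APOA1, rose, with means of 9.99, 49.3 and 21.9 per the authors' deposited table (log2 fold change 1.77, DESeq2 adjusted p = 0.0082). The 6 fibroblast and stellate markers summed to 1549, 6271 and 3306 per the authors' deposited table, where COL3A1 and LUM rose. COL3A1 alone had means of 731, 5517 and 2247, while COL1A2 did not pass, at 74.3, 17.8 and 17.5 (log2 fold change -2.10, DESeq2 adjusted p = 0.0559) per the authors' deposited table. Sums for 5 endothelial markers (368, 421 and 367), 6 leukocyte markers (821, 948 and 736) and 3 erythroid markers (9.10, 8.72 and 12.9) held no marker past the test per the authors' deposited table (lowest DESeq2 adjusted p 0.0911, for PECAM1), and CD3E was listed at 0 for shCTRL and shNPTX1_4. The part of these differences in the results that follow was not tested. The submitters' notes list the builds hg19 and mm39, and the handling of mouse reads is not given. Low hepatocyte counts thus cannot show how much host liver the libraries held, and the source of the fibroblast marker reads is not known.

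Replication and mitosis genes carried different motif letters before their starts, which is shown here as background to their values. RefSeq promoter windows (GRCh38.p14, 250 bases before the gene start) were matched by symbol for 43 of the 54 genes and searched on both strands for 3 motif classes. These were the NF-Y box (CCAAT), the CHR, or cell cycle genes homology region, known as a binding site of MuvB (TTTGAA or TTCGAA), and E2F sites (TTTCCCGC, TTTGGCGC, TTTCGCGC or TTTGCCGC). A gene counted as holding a motif if any of its windows did. The windows printed here, to show how the roles differ, belong to 5 genes that passed the test and were chosen after their values were seen: the proliferation marker MKI67, the spindle gene HMMR, the mitotic cyclin gene CCNB1, the replication clamp gene PCNA and the transcription factor gene E2F1. Each shows the 180 bases before the start, 5′ to 3′ on the gene's strand, with NF-Y boxes, CHRs and E2F sites in capitals. A motif on the opposite strand reads as its reverse complement, so that an NF-Y box then appears as ATTGG.
MKI67 (chr10:128126424-128126603, minus strand): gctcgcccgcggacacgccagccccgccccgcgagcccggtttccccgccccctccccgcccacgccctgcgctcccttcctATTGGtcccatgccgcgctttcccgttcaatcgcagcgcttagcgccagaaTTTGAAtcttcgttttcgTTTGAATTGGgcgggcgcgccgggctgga
HMMR (chr5:163460452-163460631, plus strand): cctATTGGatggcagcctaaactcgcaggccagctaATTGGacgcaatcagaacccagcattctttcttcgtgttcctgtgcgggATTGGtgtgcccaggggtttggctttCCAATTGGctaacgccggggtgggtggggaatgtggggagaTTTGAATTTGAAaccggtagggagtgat
CCNB1 (chr5:69166970-69167149, plus strand): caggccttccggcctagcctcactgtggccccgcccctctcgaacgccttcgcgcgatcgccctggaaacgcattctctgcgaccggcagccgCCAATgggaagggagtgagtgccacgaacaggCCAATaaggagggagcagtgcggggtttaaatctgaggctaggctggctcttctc
PCNA (chr20:5126623-5126802, minus strand): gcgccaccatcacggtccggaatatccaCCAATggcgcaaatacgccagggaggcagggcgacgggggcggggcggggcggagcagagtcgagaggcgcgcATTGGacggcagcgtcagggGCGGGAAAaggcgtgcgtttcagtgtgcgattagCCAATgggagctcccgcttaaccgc
E2F1 (chr20:33686386-33686565, minus strand): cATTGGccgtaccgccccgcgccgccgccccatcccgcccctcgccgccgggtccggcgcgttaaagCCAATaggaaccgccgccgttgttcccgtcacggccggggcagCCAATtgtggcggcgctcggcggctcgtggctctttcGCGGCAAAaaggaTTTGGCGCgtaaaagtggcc
MKI67 and HMMR each held 2 CHRs close to the start, in MKI67 with the second CHR overlapping an NF-Y box, and in HMMR after 5 NF-Y boxes, 2 of which overlap. CCNB1 held 2 NF-Y boxes and no CHR of these letters. PCNA held 3 NF-Y boxes and 1 E2F site, and E2F1 held 3 NF-Y boxes and 2 E2F sites.

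CHR letters were found in 9 of 16 mitosis genes with a window (56.2%) and in 1 of 9 replication genes (11.1%), the helicase gene MCM6. E2F letters showed the other order, with 6 of 9 replication genes (66.7%: CDT1, MCM3, MCM6, MCM7, PCNA and GINS2) and 2 of 16 mitosis genes (12.5%: CENPA and NUSAP1). NF-Y boxes were common in both, in 7 of 9 replication genes and 13 of 16 mitosis genes. Among 9113 genes with a window and a mean of 100 or more normalized counts, 41.9% held an NF-Y box, 13.7% a CHR and 5.73% an E2F site. Over all 27305 genes of the promoter table the shares were 37.0%, 17.2% and 3.40%. The mitosis genes with a CHR were CDC20, PLK1, BUB1B, KIF11, KIF23, CENPA, PRC1, ANLN and HMMR. No window was matched for CCNE2, CCND2, CDK2, MCM4, MCM5, AURKA, TTK, BIRC5, FOXM1, TPX2 and UBE2C. A match of letters is a description of the window and not a measured binding site.

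**Figure D1:**
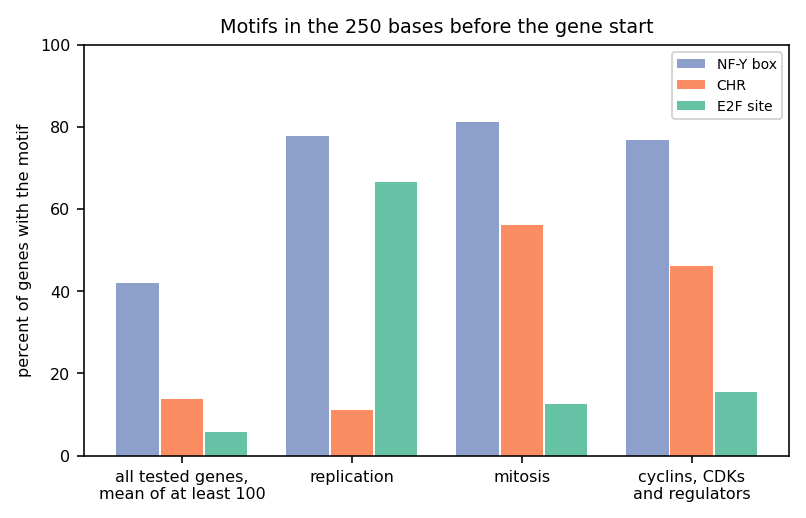
Share of genes (percent, vertical axis) whose 250 bases before the start hold an NF-Y box, a CHR or an E2F site, for all tested genes averaging 100 or more normalized counts and for 3 role lists. CHRs stand out in mitosis genes (56.2%) and E2F sites in replication genes (66.7%), against 13.7% and 5.73% of all such genes.

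The first comparison asked which cell cycle genes differed between knockdown and control tumours. Of the 8 regulators of G1 and entry into S phase, the kinase genes CDK6 and CDK4, the E-type cyclin genes CCNE1 and CCNE2 and the phosphatase gene CDC25A were higher, and CDK2, CCND2 and CCND3 did not pass. The mitotic pair CDK1 and CCNB1 and the spindle gene HMMR were higher as well. The phosphatase gene CDC25B, the proliferation marker MKI67 and the transcription factor gene FOXM1 were lower. Of the 54 genes, 11 rose and 3 fell by DESeq2 per the authors' deposited table (adjusted p under 0.05), which is 25.9%. Across the 18426 named genes tested per the authors' deposited table, 27.3% passed, 15.8% higher and 11.5% lower, and among genes averaging 100 or more normalized counts 34.4% passed. The share of cell cycle genes that passed was thus near that of all genes. Their median log2 fold change was 0.07, against -0.01 over all tested genes and 0.05 over those with at least 100 normalized counts per the authors' deposited table. With the group totals made equal, a shift of 0.0661 downward for every log2 fold change, the split became 5 higher and 4 lower: CCNB1, CCNE2, CDK1, PCNA, BIRC5 and E2F1 lost their calls and E2F2 was called lower. Over all tested genes the same shift turned 2913 higher and 2114 lower into 2132 higher and 3017 lower. Of the 54 genes 53 averaged 100 or more normalized counts, CCND2 being the exception, and the median standard error was 0.121 per the authors' deposited table. In such bulk RNA, fewer cycling cells and less RNA per cell cannot be told apart.

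**Figure D2:**
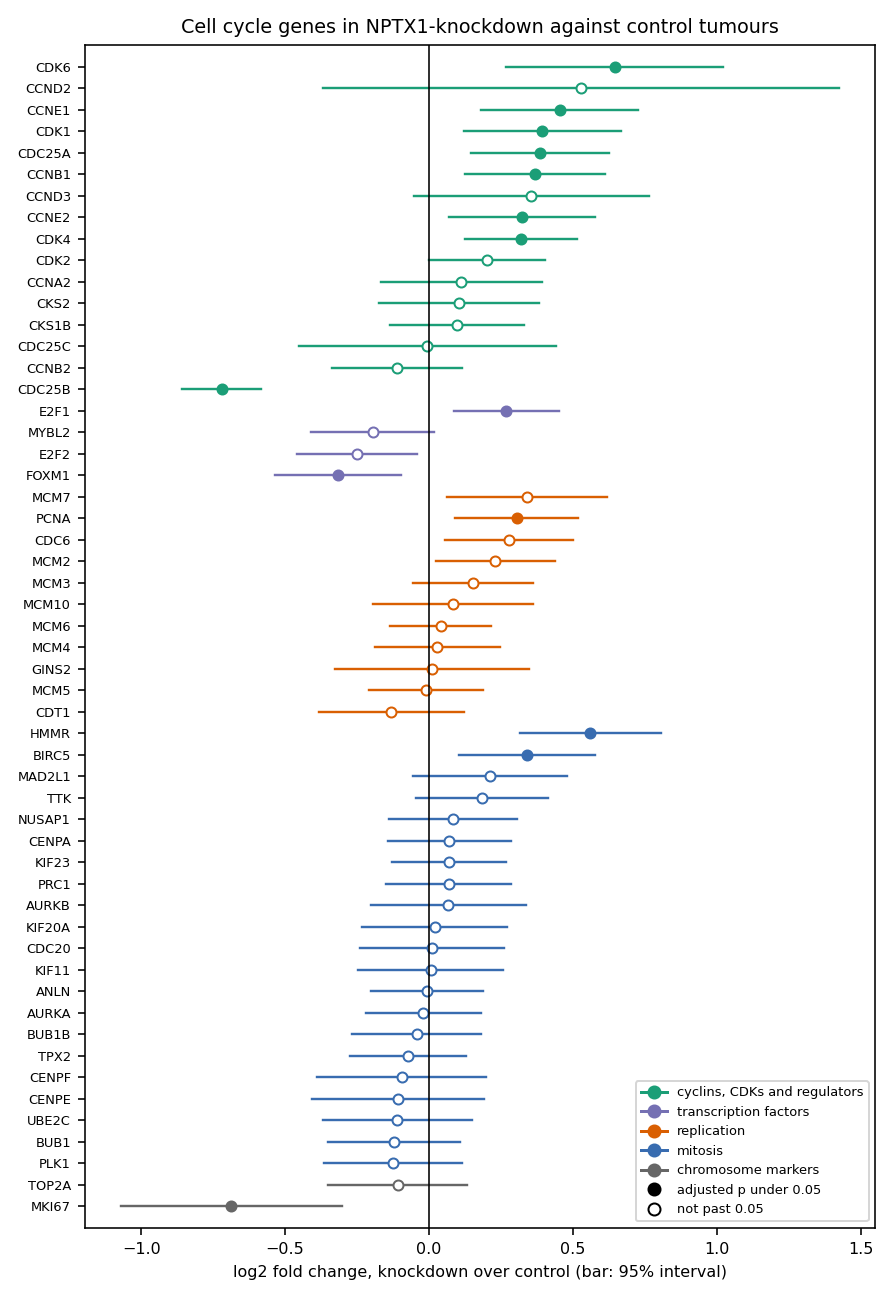
Log2 fold change of the knockdown over the control libraries (horizontal axis) for the 54 genes, ordered by role, with its 95% interval from the standard error of the authors' deposited table. Filled points passed a DESeq2 adjusted p of 0.05: 11 lie to the right of 0 and 3 to the left, and most replication and mitosis genes are open points near 0.

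Cyclins, CDKs and their regulators held most of the changes, with 7 of 16 higher, 1 lower and 8 not passed per the authors' deposited table. Thus 50% passed, against 27.3% of all tested genes and 34.4% of those averaging 100 or more normalized counts. With equal totals CCNB1, CCNE2 and CDK1 of this list lost their calls and none was gained, while the calls over all 18426 tested genes went from 5027 to 5149. The excess over all genes was thus smaller under that setting, and it was not tested. The D-type cyclin partner CDK6 had group means of 9177 normalized counts for shCTRL, 10026 for shNPTX1_3 and 17582 for shNPTX1_4 per the authors' deposited table. Its log2 fold change was 0.64 (SE 0.19, DESeq2 adjusted p = 0.00545) per the authors' deposited table, and the shNPTX1_4 mean stood far above the other two. Its close relative CDK4 had means of 1046, 1284 and 1320.02 per the authors' deposited table (log2 fold change 0.32, SE 0.10, DESeq2 adjusted p = 0.00842). Here both hairpins stood above control by similar amounts, with log2 ratios of 0.30 and 0.34 from the group means. The D-type cyclins that bind these kinases varied with the hairpin: CCND3 had means of 175, 290.1 and 179 per the authors' deposited table (log2 fold change 0.35, DESeq2 adjusted p = 0.198). CCND2, the lowest of the 54 genes in counts and per kilobase, had 13.3, 26.5 and 13.8 normalized counts per the authors' deposited table (0.53, DESeq2 adjusted p = 0.406). For both cyclins the shNPTX1_3 mean was above control and the shNPTX1_4 mean close to it, and neither passed. CCND1, the remaining D-type cyclin gene and not among the 54, fell, with means of 11031, 7730 and 7385 per the authors' deposited table (log2 fold change -0.55, SE 0.09, DESeq2 adjusted p = 1.36e-08).

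The E-type cyclins, which activate CDK2 at the start of S phase, rose, though CCNE2 lost its call with equal totals. CCNE1 had means of 189, 227 and 279 normalized counts for shCTRL, shNPTX1_3 and shNPTX1_4 per the authors' deposited table (log2 fold change 0.45, SE 0.14, DESeq2 adjusted p = 0.00723). CCNE2 had means of 545, 586 and 746 per the authors' deposited table (0.32, SE 0.13, DESeq2 adjusted p = 0.0464). In both, the order of means was control, shNPTX1_3, shNPTX1_4. CDC25A, the phosphatase that removes the inhibitory phosphates from CDK2, had means of 272, 341 and 361 per the authors' deposited table (0.39, SE 0.12, DESeq2 adjusted p = 0.00966). CDK2 itself did not pass, with a log2 fold change of 0.20 (95% interval -0.00076 to 0.40, DESeq2 adjusted p = 0.133) per the authors' deposited table.

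Among the S, G2 and M phase regulators, CDK1, the kinase of mitotic entry, had means of 1598, 1863 and 2270.3 normalized counts per the authors' deposited table (log2 fold change 0.39, SE 0.14, DESeq2 adjusted p = 0.0216). Its partner CCNB1 had means of 3729, 4785 and 4831 per the authors' deposited table (0.37, SE 0.12, DESeq2 adjusted p = 0.0158), nearly the same in the 2 hairpins. Neither kept its call with equal totals, at log2 fold changes of 0.33 for CDK1 and 0.30 for CCNB1. The related cyclin CCNB2 did not pass: its means were 1138, 1072 and 1037 per the authors' deposited table (-0.11, 95% interval -0.34 to 0.11, DESeq2 adjusted p = 0.5003). The largest change and the smallest adjusted p of the 54 genes belonged to CDC25B, the phosphatase that starts CDK1 activation at the G2 to M transition. Its means were 4070.2 for shCTRL, 2384 for shNPTX1_3 and 2533 for shNPTX1_4 per the authors' deposited table. That is a log2 fold change of -0.72 (SE 0.07, 0.607-fold, DESeq2 adjusted p = 1.46e-22) per the authors' deposited table, and both hairpins lay well below control. Of the 3 CDC25 phosphatases CDC25A rose, CDC25B fell and CDC25C did not pass, with no test between them. CDC25C had means of 273, 183 and 336 per the authors' deposited table (-0.01, SE 0.23, DESeq2 adjusted p = 0.988). Its 95% interval, -0.45 to 0.44, held the CDC25A value of 0.39. For CDC25C the control mean lay between the 2 hairpin means. The S phase and G2 cyclin CCNA2 (0.11) and the CDK accessory subunits CKS1B (0.10) and CKS2 (0.10) did not pass per the authors' deposited table (0.598, 0.581 and 0.621 for the DESeq2 adjusted p).

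Of the 4 transcription factors 1 rose and 1 fell, against 15.8% higher and 11.5% lower across all tested genes. A list of 4 genes is too short to set its share against these. E2F1, which activates replication genes, rose, with means of 345, 403 and 426 normalized counts per the authors' deposited table (log2 fold change 0.27, SE 0.09, DESeq2 adjusted p = 0.0197). FOXM1, which activates mitotic genes, fell, with means of 878, 609 and 774 per the authors' deposited table (-0.32, SE 0.11, DESeq2 adjusted p = 0.0224). FOXM1 was lowest in shNPTX1_3. MYBL2, the MuvB partner, had means of 989.7, 792 and 916 per the authors' deposited table (-0.20, DESeq2 adjusted p = 0.173). E2F2, another activator of replication genes, had means of 266, 206 and 237 per the authors' deposited table (-0.25, DESeq2 adjusted p = 0.0608). Neither passed, and in both each hairpin mean lay below control. With equal totals E2F1 lost its call and E2F2 passed as lower, so that 0 rose and 2 fell. Under that setting 2132 of all 18426 tested genes were higher and 3017 lower. E2F1 also lost its call with the median of genes of like length removed. 

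**Figure D3:**
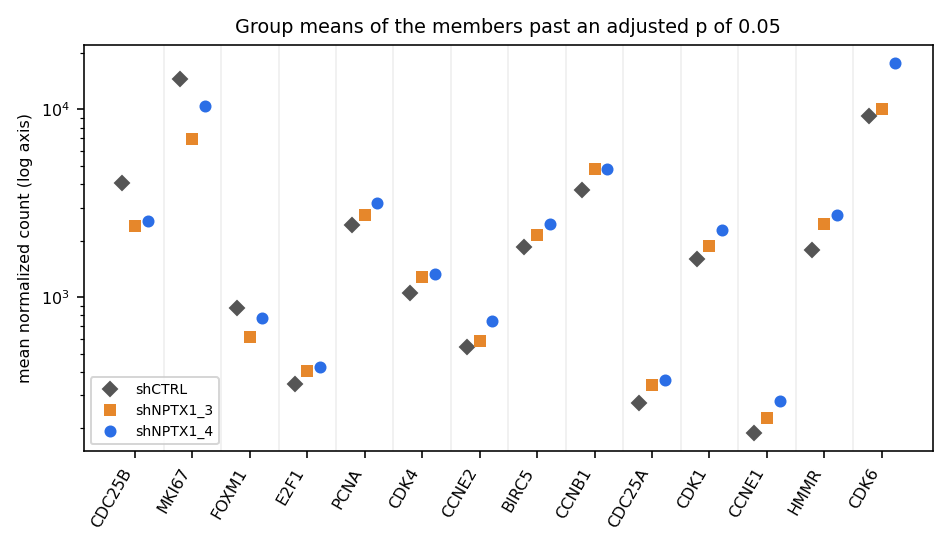
Authors' mean normalized count (log axis) of each group for the 14 genes that passed, ordered from the lowest to the highest log2 fold change. In each of the 14 both hairpin means lie on the same side of shCTRL, and CDK6 and MKI67 show the widest gaps between the 2 hairpins. The comparison that picked these genes pools both hairpins and so favours means on the same side, which is thus no separate sign that the hairpins agree.

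The next comparison set replication genes against mitosis genes. The median log2 fold change per the authors' deposited table was 0.08 over 11 replication genes and 0.01 over 21 mitosis genes, a difference of 0.07. With the median of genes of like length removed the difference was 0.12. With equal totals the mitosis median turned to -0.05. 1 replication gene (PCNA) rose and 0 fell (9.09%), and 2 mitosis genes (HMMR and BIRC5) rose and 0 fell (9.52%), by DESeq2 per the authors' deposited table. At an unadjusted p under 0.05 the counts were 4 and 2, against 7015 of all 18426 tested genes and 5533 of the 11976 averaging 100 or more normalized counts. Both shares by adjusted p lay below the 27.3% of all tested genes, and the difference between the lists was not tested.

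PCNA, the sliding clamp that holds DNA polymerases on the template, had means of 2414 normalized counts for shCTRL, 2722 for shNPTX1_3 and 3171 for shNPTX1_4 per the authors' deposited table. It rose, with a log2 fold change of 0.30 (SE 0.11, DESeq2 adjusted p = 0.0240) per the authors' deposited table, a call lost with equal totals. The E2F site and 3 NF-Y boxes printed above lie before its start. Among the 6 subunits of the MCM2 to MCM7 helicase ring, which opens the double helix, 5 had a log2 fold change above 0 and none passed per the authors' deposited table (6 of 6 with a DESeq2 adjusted p above 0.05, 2 at an unadjusted p under 0.05). Of all 18426 tested genes, 7015 had an unadjusted p under 0.05. MCM7 came closest, with means of 3431, 3528 and 4951 per the authors' deposited table (0.34, SE 0.14, DESeq2 adjusted p = 0.0562). Its shNPTX1_3 mean was close to control and its shNPTX1_4 mean above both. MCM2 (0.23), MCM3 (0.15), MCM6 (0.04) and MCM4 (0.03) followed per the authors' deposited table, and MCM5 was nearly level, with means of 1847, 1843 and 1827 (-0.01, DESeq2 adjusted p = 0.952). Subunits of 1 ring thus spread from -0.01 to 0.34, with standard errors of 0.09 to 0.14.

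Of the loading factors of that ring, neither passed. CDC6, which helps load it onto origins, had means of 1141, 1203 and 1513 normalized counts per the authors' deposited table (0.28, SE 0.11, DESeq2 adjusted p = 0.0506). CDT1, the other loader, had means of 242, 191 and 243 per the authors' deposited table (-0.13, DESeq2 adjusted p = 0.472). MCM10 (0.08) and GINS2 (0.01), which serve the active helicase, had standard errors of 0.14 and 0.17 per the authors' deposited table. The 95% intervals of the 10 replication genes that did not pass ran from -0.38 to 0.62, so moderate changes of single genes lie within the error.

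Among mitosis genes, HMMR, a spindle-associated protein also known as a hyaluronan receptor, had means of 1774 normalized counts for shCTRL, 2448 for shNPTX1_3 and 2735 for shNPTX1_4 per the authors' deposited table. It rose 1.47-fold (log2 fold change 0.56, SE 0.13, DESeq2 adjusted p = 0.000118) per the authors' deposited table, with both hairpins well above control. HMMR has an antisense gene, HMMR-AS1, that overlaps its exons, and the labels do not state whether the authors' counting used strand. BIRC5 (survivin), a subunit of the chromosomal passenger complex, had means of 1838, 2143 and 2460 per the authors' deposited table (0.34, SE 0.12, DESeq2 adjusted p = 0.0214), a call also lost with equal totals. Its kinase partner AURKB (0.07) did not pass, nor did the spindle kinase AURKA (-0.02) per the authors' deposited table. PLK1, the polo-like kinase of mitotic entry, had means of 663, 517 and 674 per the authors' deposited table (-0.12, DESeq2 adjusted p = 0.475). Only its shNPTX1_3 mean was low.

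The spindle checkpoint, which holds anaphase until all kinetochores are attached, had 4 genes, of which 0 passed by DESeq2 and 0 had an unadjusted p under 0.05 per the authors' deposited table. Among all 18426 tested genes 27.3% passed and 7015 had an unadjusted p under 0.05. MAD2L1 had a log2 fold change of 0.21 (means 915, 951 and 1136, DESeq2 adjusted p = 0.248) and the kinase gene TTK had 0.18 (1518, 1549 and 1851, DESeq2 adjusted p = 0.240) per the authors' deposited table. BUB1 had means of 3044, 2390.3 and 3093 per the authors' deposited table (-0.12, DESeq2 adjusted p = 0.455). Its relative BUB1B had -0.04 per the authors' deposited table. BUB1 thus had the order of PLK1, near control in shNPTX1_4 and low in shNPTX1_3. A similar order held for the kinetochore motor gene CENPE (means 4178, 3122 and 4437) and for CENPF (19766, 14429.7 and 21551), which binds kinetochores, per the authors' deposited table. Neither passed (-0.11 and -0.10, DESeq2 adjusted p = 0.634 and 0.674 per the authors' deposited table), and CENPA, the centromeric histone gene, had 0.07.

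Apart from HMMR, the spindle and division genes lay close to 0 in the comparison that pools both hairpins. The spindle assembly factor TPX2 (-0.07), the motor KIF11 that pushes the poles apart (0.01) and the microtubule binder NUSAP1 (0.08) did not pass per the authors' deposited table. Neither did the genes of cytokinesis, the final separation of the daughter cells: KIF20A (0.02), KIF23 (0.07), PRC1 (0.07) and ANLN (-0.01) per the authors' deposited table. The anaphase-promoting complex activator CDC20 (0.01) and its ubiquitin-conjugating enzyme UBE2C (-0.11) did not pass per the authors' deposited table either. Over the 19 mitosis genes that did not pass, the 95% intervals ran from -0.41 to 0.48 and the DESeq2 adjusted p from 0.240 to 0.980 per the authors' deposited table.

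Of the 2 proliferation markers MKI67 passed and TOP2A did not, with no test between them. Their 95% intervals overlapped, at -1.07 to -0.30 for MKI67 and -0.35 to 0.13 for TOP2A, per the authors' deposited table. MKI67, which encodes the Ki-67 antigen that coats mitotic chromosomes, had means of 14460.1 normalized counts for shCTRL, 6978 for shNPTX1_3 and 10479.7 for shNPTX1_4 per the authors' deposited table. It fell by 0.69 on the log2 scale (SE 0.20, 0.621-fold, DESeq2 adjusted p = 0.00335) per the authors' deposited table. The means of both hairpins were below control, shNPTX1_3 more so. TOP2A, the topoisomerase that untangles sister chromatids, had means of 13940.3, 11505 and 13980.8 per the authors' deposited table (-0.11, SE 0.12, DESeq2 adjusted p = 0.542). MKI67 has the longest transcript of the 54 genes (12678 nucleotides), and longer transcripts tended to be lower. Over 11641 genes with at least 100 normalized counts, Spearman's rho of the log2 fold change with transcript length was -0.267, and over the 54 genes it was -0.169. Genes are not independent replicates, so these are descriptions. After the median of genes of like length (20 bins) was removed, MKI67 was at -0.54 (adjusted p = 0.0265 by the DESeq2 statistic recomputed from the authors' deposited table). MKI67 and HMMR, which both carry CHRs in the windows printed above, changed in opposite directions. Over the genes with a window, the 18 with a CHR held 2 that rose (HMMR and CDK1) and 2 that fell (MKI67 and CDC25B). The 25 without held 7 that rose and 0 that fell, with no test of this split. Across all tested genes 27.3% passed, 15.8% higher and 11.5% lower, per the authors' deposited table. FOXM1, which fell, and CCNE2 and BIRC5, which rose, had no window and are in neither count.

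The group means of the 2 hairpins were then set apart for these genes. Both hairpin comparisons share the control libraries, so they are given side by side. Per the authors' deposited table, the shNPTX1_3 mean was above control in 23 of 54 genes, against 55.0% of all tested genes with at least 100 normalized counts. The shNPTX1_4 mean was above control in 45 of 54, against 55.7%. The median log2 ratio to control (pseudocount 1) over the 54 genes was -0.07 with shNPTX1_3 and 0.16 with shNPTX1_4, computed from the authors' deposited table. For replication genes the medians were -0.0031 and 0.25, and for mitosis genes -0.16 and 0.12, so that replication genes lay 0.15 and 0.13 above mitosis genes, with no test. In 14 of 21 mitosis genes, 5 of 11 replication genes and 2 of 16 cyclins, CDKs and regulators, the control mean lay above the shNPTX1_3 mean and below the shNPTX1_4 mean. That order was found in 22 of all 54 genes and in 12.1% of all tested genes averaging 100 or more normalized counts. For such genes the pooled comparison averages a lower and a higher group.

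**Figure D4:**
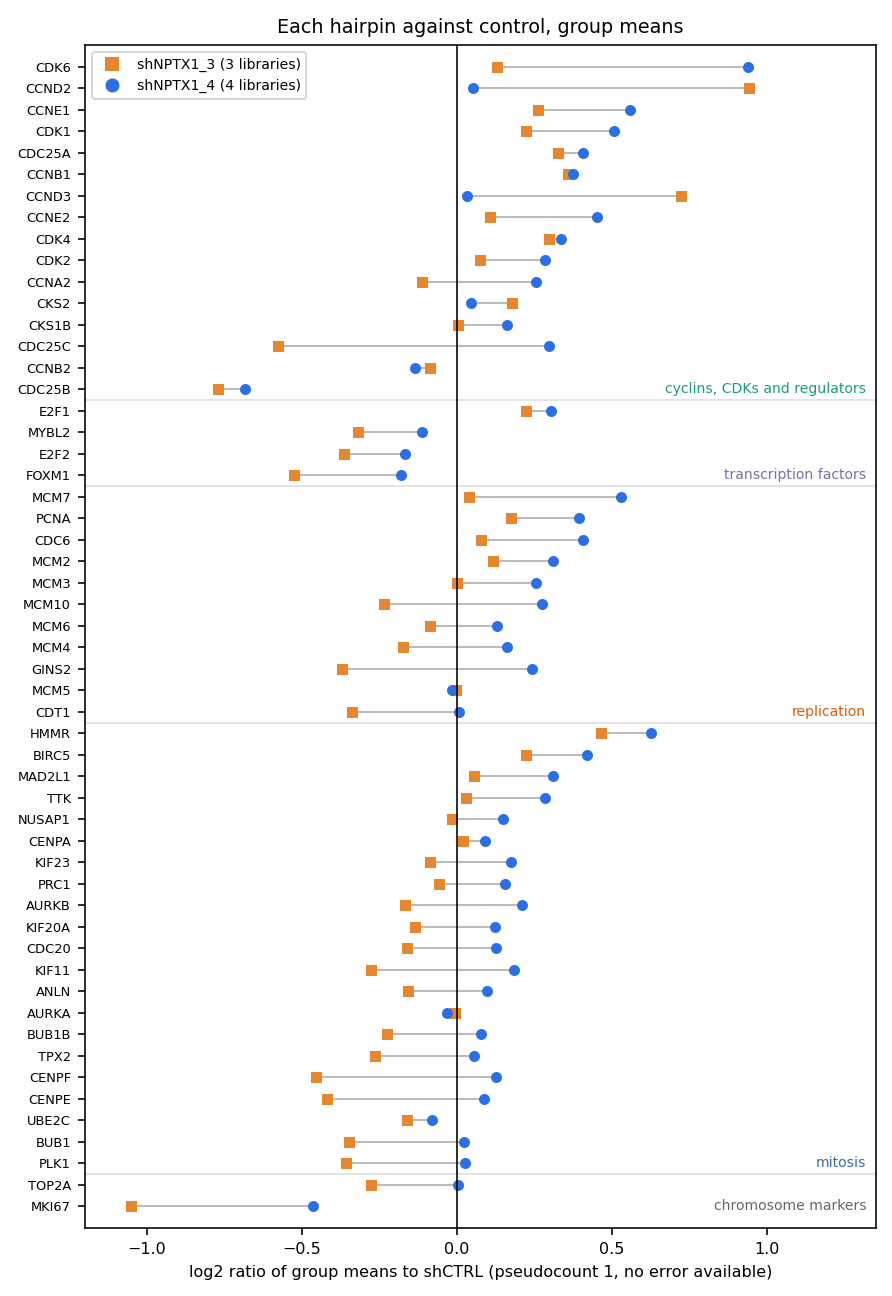
Log2 ratio of group means to shCTRL (horizontal axis, pseudocount 1) for each of the 54 genes with shNPTX1_3 (squares, 3 libraries) and shNPTX1_4 (circles, 4 libraries), ordered by role as in the plot of fold changes. In 48 of 54 genes the circle lies to the right of the square, and in 14 of 21 mitosis genes the 2 lie on either side of 0. No error is available for these ratios.

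Set against each other without the control, shNPTX1_4 tumours had the higher mean in 48 of 54 genes, with a median log2 ratio of 0.26. The 6 exceptions were CCNB2, CCND2, CCND3, CKS2, MCM5 and AURKA. Of the 53 genes with at least 100 normalized counts, 48 (90.6%) were higher with shNPTX1_4, while 51.4% of 11976 such genes were per the authors' deposited table. At least 1.25-fold apart were 20 of 54, or 19 of those 53, against 23.0%. The gap was widest in CDC25C (0.87), CDK6 (0.81), GINS2 (0.61), MKI67 (0.59) and CENPF (0.58), and in the other direction in CCND2 (-0.89) and CCND3 (-0.69). Replication genes had a median of 0.33 and mitosis genes 0.26. The difference between the hairpins was not tested, since no single-library value was analysed here. Other genes of the pathway showed the same order, with 140 of 161 (87.0%) higher in shNPTX1_4 and a median of 0.20. The epithelial and fibroblast marker sums had the opposite order, higher in shNPTX1_3 than in shNPTX1_4, although COL1A1 (701 and 1019) and EPCAM (438 and 548) were higher in shNPTX1_4 per the authors' deposited table. Their part in the order of these genes was not tested.

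**Figure D5:**
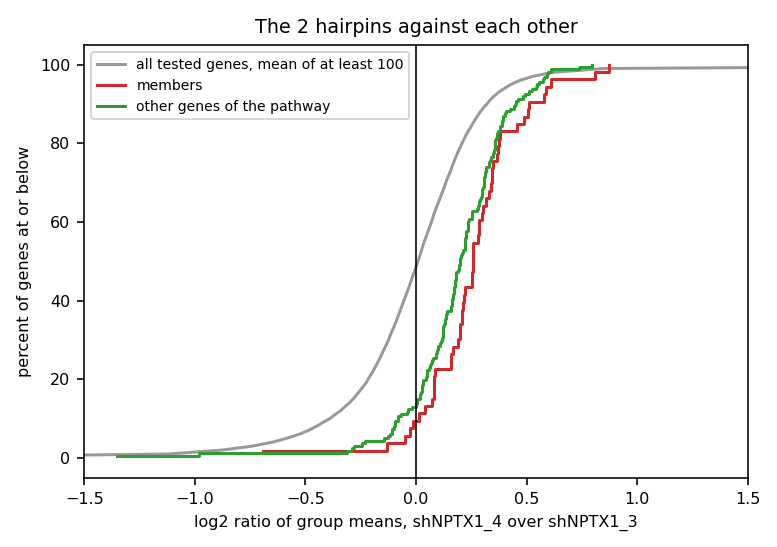
Cumulative share of genes (percent, vertical axis) by the log2 ratio of the shNPTX1_4 mean over the shNPTX1_3 mean (horizontal axis), for genes averaging 100 or more normalized counts. The curve of all 11976 tested genes crosses 0 near the middle (51.4% above 0), while those of the 53 cell cycle genes (90.6% above 0) and the 161 other genes of the pathway (87.0%) are shifted to the right.

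Averaged over all 11 libraries and compared per kilobase of transcript, high levels were found for ANLN (2889 normalized counts per kb), CKS2 (2327), TOP2A (2308), TPX2 (2218), PCNA (2041) and CCNB1 (2037). Low levels were found for CCND2 (2.64), E2F2 (46.0), CDT1 (70.6) and GINS2 (72.4). The transcription factor genes were at low levels, with E2F1 at 156, FOXM1 at 219.9 and MYBL2 at 336. CDK6 (1073) stood above CDK4 (583). These levels are means over all 11 libraries of the authors' deposited table divided by the longest coding transcript, and the order of neighbouring genes can differ between groups. Reads of several genes are uncertain: 16 overlap exons of a gene on the other strand (among them CDK4 with TSPAN31 and MCM7 with AP4M1), 4 overlap a gene on the same strand, and 11 have pseudogenes of the same name (CKS1B 6, UBE2C 4, PCNA 3).

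Of 163 tested other genes of the pathway, 29 rose and 11 fell (24.5%) by DESeq2 per the authors' deposited table, against 27.3% of all tested genes and 34.4% of those averaging 100 or more normalized counts, with a median log2 fold change of 0.04. With the group totals made equal the split was 15 higher and 19 lower. Over all tested genes the split turned as well, from 2913 higher and 2114 lower to 2132 higher and 3017 lower. Among the genes of nucleotide supply, which make DNA precursors, DUT and TK1 (0.35 each) and the ribonucleotide reductase gene RRM1 (0.33) rose per the authors' deposited table. Thymidylate synthase, TYMS, fell by 0.48 per the authors' deposited table (DESeq2 adjusted p = 2.6e-06). Its means were 1339, 915 and 995 normalized counts per the authors' deposited table, low with both hairpins. Of 43 other replication genes 8 rose and 1 fell (20.9%) per the authors' deposited table. The flap endonuclease gene FEN1 rose by 0.54, the replication protein A subunit RPA3 by 0.46, the polymerase epsilon subunit POLE3 by 0.41 and the helicase factor CDC45 by 0.40, while the origin recognition subunit ORC6 fell by 0.36 per the authors' deposited table.

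Of 83 other mitosis genes 14 rose and 5 fell (22.9%) per the authors' deposited table, again against 27.3% of all tested genes. The kinetochore and centromere genes SKA2 (0.70, DESeq2 adjusted p = 2.69e-19), CENPW (0.52), CENPI (0.48) and MIS12 (0.47) rose most, and the cytokinesis kinase CIT fell by 0.48, the anaphase-promoting complex subunit CDC16 by 0.29, TACC3 by 0.25 and the condensin subunit NCAPD2 by 0.20 per the authors' deposited table. Among 20 other cyclins, kinases and E2F or MuvB factors, E2F5 (0.35) and DBF4 (0.23) rose, and CCND1, LIN54 (-0.25) and RBBP4 (-0.19) fell per the authors' deposited table. Of 10 tested CDK inhibitors and pocket proteins, CDKN3 rose by 0.45 and RB1, the brake on E2F, fell by 0.33 (DESeq2 adjusted p = 0.0254 and 0.00717 per the authors' deposited table). CDKN2A, known to be deleted in PANC1, was listed at 0 in every group of the authors' deposited table. CDKN1A (p21), the inhibitor induced by p53, had means of 887, 1398 and 547 per the authors' deposited table (DESeq2 adjusted p = 0.955), highest in shNPTX1_3 and lowest in shNPTX1_4.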

How the data were processed

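RNA-seq of 11 tumour libraries was analysed from the authors' deposited table. RNA extraction used Norgen's purification kit and library preparation the TruSeq RNA kit (version 2), per the labels' protocols. The builds hg19 and mm39, and the tools DESeq2 1.24, MultiQC 1.9, featureCounts 2.0.0 and STAR 2.7.6a, come from the submitters' processing notes, which do not state their roles. Not given in the sources used here are the annotation, the strand setting and the handling of mouse reads. Per the file headers, the authors deposited for each group a mean normalized count (a signal, counts divided by size factors), and for 1 comparison a log2 fold change, its SE (standard error), the Wald statistic (a score), a p-value and its adjusted value. Of 21898 rows with a mean above 0, 21894 had a mean over all libraries equal to the group means weighted by 4, 3 and 4 libraries (relative tolerance 1e-06).

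Only group means are given, so no count test, test of 1 hairpin or test per library was run, and the calls are those of DESeq2 in the authors' deposited table (adjusted p under 0.05). Of the 23434 rows, 107 were left out, among them 79 without a gene name and 26 named by a date. Group means summed to 18730000 (shCTRL), 20000000 (shNPTX1_3) and 19320000 (shNPTX1_4) normalized counts. Log2 ratios of group means used a pseudocount of 1. Intervals are 95% from that SE. Transcript lengths and overlaps came from GENCODE v29 and promoter windows from RefSeq (GRCh38.p14), with no coordinates moved between builds. In 51 of the 57 windows the transcribed bases were found in a transcript of the gene on the same strand. The rescaled tests were checked on simulated data.

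The genes and lists were chosen with earlier results of these data known. Every gene of the 54 is named, those that passed with all values, and of those that did not, the 2 highest and 2 lowest of each role. Of each list of other pathway genes, the 4 largest increases and decreases that passed are named, except an item that is not reported here. Alternatives rescaled or centred the groups, changed the filter or threshold, removed a length trend and changed the pseudocount. Python 3.11.15, pandas 2.3.3, numpy 2.4.6 and scipy 1.17.1 were used.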

Additional observations from a re-analysis of the deposited data

How the results depend on the processing

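The 14 calls became 9 (5 higher, 4 lower) with the group totals made equal, and 7 at an adjusted p under 0.01. Replication genes that passed went from 1 to 0 under both settings, and to 2 when adjusted over genes with a mean of at least 10. Mitosis genes that passed went from 2 to 1 with the same totals, at 0.01 and after removing the length trend, and to 5 (of 27) when MKI67, TOP2A, CCNB1, CCNB2, CDK1 and CDC25C joined them. Other pathway genes went from 40 to 19 at 0.01. Over all 18426 tested genes the calls went from 5027 to 5149 with the same totals and to 3148 at 0.01. They went to 5074 when adjusted over genes with a mean of at least 10, and to 4620 after removing the length trend.

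With the same totals CCNB1, CCNE2, CDK1, PCNA, BIRC5 and E2F1 lost their calls and E2F2 gained one. With the length trend removed CCNE2, CDK1, PCNA, BIRC5 and E2F1 lost theirs and CDC6 gained one. Centring on the median gene changed none. The mitosis median turned to -0.05 with the same totals and to -0.01 with the length trend removed, while the replication minus mitosis difference, which a common shift cannot move, was 0.12 with the length trend removed. The count of genes higher with shNPTX1_4 than with shNPTX1_3 was 51 of 54 with the same totals, against 59.3% of genes with at least 100 normalized counts, an alternative added after the data were seen. The cause of these shifts was not tested. No library could be left out in turn, since no single-library value was analysed here. No paired analysis was possible because the group means carry no replicate numbers.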
